A study of Mus musculus with 24 samples.

Results

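The genes described here act in the lipids of the sebaceous gland, the oil gland of the hair follicle. They are the 8 rows of the deposited gene table whose symbol is Awat1, Awat2, Far2, Soat1, Elovl3, Mc5r, Scd3 or Mgst1, 8 of 45777 genes, and all 8 were found. Sebocytes fill with lipid droplets and release them by bursting, and in the mouse the secretion is rich in wax esters, cholesterol esters and triglycerides that coat hair and skin. Wax esters form when a fatty acid is reduced to a fatty alcohol and the alcohol is joined to another fatty acid. Melanocortin peptides are known to act on the gland through a receptor on its cells.

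PolyA RNA of mouse skin and of dorsal root ganglia (DRG, which hold the cell bodies of sensory neurons) was sequenced in 4 groups of 6 libraries: model skin, control skin, model DRG and control DRG. The mice were BALB/c females, 6 weeks old. In the rosacea model, the cathelicidin peptide LL37 was injected into the skin at 320 µM in 40 µL, repeatedly over 2 days. The sources used here give neither the control injection nor the number of animals behind the libraries, so p-values measure the spread between these samples, which may be technical. The design text also names oral gabapentin at 100 mg/kg from day 3, with ganglia taken on day 4, but no sample label says which animals received it. Its part in any difference between model and control cannot be told apart from that of LL37. Library totals ran from 45238735 to 68396846 counts.

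Levels within a gene are CPM (counts scaled to library size with edgeR's TMM factors), and levels between genes are the authors' TPM, which also divides by transcript length. "Rose" and "fell" are used for genes that passed edgeR's quasi-likelihood (QL) test, that is, with a p below 0.05 after Benjamini-Hochberg (BH) adjustment across the tissue's genes. In a bulk sample, fewer sebocytes and less RNA per sebocyte cannot be told apart.

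Mc5r was the only one of the 8 genes to fall in model skin, by 1.67-fold, and none rose. The other 7 did not pass the test, with log2 fold changes between -0.57 for Elovl3 and 0.38 for Mgst1. Among the 19526 genes tested in skin, 5.82% fell and 14.1% rose, and the shares whose libraries did not overlap were 1.44% lower and 7.25% higher. The 1 of 8 members that fell is to be read against that background. The median log2 fold change was -0.45 over the 8 genes and -0.02 over all genes tested. Of the 8 values 6 lay below 0, beside 10320 of the 19526 genes tested. An unadjusted p under 0.05 (edgeR QL) was found for 3 of the 8, beside 6904 of the 19526, so that share is near the background. The number of the 8 that passed as lower was 2 or 3 under some other settings, 3 without model library 5 and 2 without control library 5. It was 5 with a sebaceous gland score as a covariate, a setting chosen after seeing the data. That score is the mean log2 CPM of Dgat2l6, Cidea and Krt79 alone and is not a measured amount of gland. Over all genes tested, the number lower also moved, to 308 to 2554 with a library left out and 2048 with the gland score. Beyond the group difference, Awat1 and Far2 varied together from library to library in skin, each also with Elovl3, Scd3 and Awat2, and Mc5r was in no pair that passed.

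Sequences bear on which of these values can be read gene by gene. Awat1 (gene 245533) and Awat2 (gene 245532) lie on chromosome X, at 100572247 to 100578206 and 100402221 to 100494278 (GRCm38.p6). Dgat2l6, an acyltransferase gene of the same family, sits between them, 26.1 kb from Awat1 and 30.6 kb from Awat2. No 50-base stretch of an Awat1, Awat2, Elovl3, Mc5r or Mgst1 transcript occurred in a transcript of another gene (GENCODE M21). For Scd3 (gene 30049, chromosome 19, 44203288 to 44244016) it was 6.57% of stretches, of which most matched its neighbours Scd1, 150.4 kb away, and Scd2, 49.7 kb away. Scd4, also in the cluster, lies 89.3 kb away. Far2 (gene 330450, chromosome 6, 148047416 to 148182758) shared 10.8%, chiefly with Ergic2, whose exons overlap 837 bases of Far2 exon on the opposite strand. Soat1 (gene 20652, chromosome 1, 156428108 to 156474328) shared 0.719%. The sources used here do not say how reads that fit several genes were counted or whether strand was used, so Scd3 and Far2 counts can hold reads of these neighbours.

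The longest identical coding run of Scd3 and Scd1 shows how far reads can fit both desaturase genes. It is 185 bases, of which the 125 in capitals are also identical in Scd2 (chromosome 19, coding strand, GENCODE M21 transcripts).
Scd3: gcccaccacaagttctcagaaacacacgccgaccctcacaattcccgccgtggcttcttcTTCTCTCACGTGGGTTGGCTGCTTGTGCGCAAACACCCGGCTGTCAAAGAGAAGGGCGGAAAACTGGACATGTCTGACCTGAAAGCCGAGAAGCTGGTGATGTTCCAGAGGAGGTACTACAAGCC

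Promoter windows from RefSeq (GRCm38.p6, 250 bases before to 50 after a start site) were found for 6 of the 8 genes, 8 windows in all, with none in the table for Elovl3 or Mc5r. Those of Awat1, Far2 and Awat2 are shown, as some of the genes that varied together across skin libraries. Scd3 varied with them as well, and its window, which held none of the motifs searched, is not printed. For Awat2, the start farther upstream of the 2 in the table is given. Capitals mark matches to CCAAT on either strand. Awat1 is chrX:100571997-100572296 on the plus strand, Far2 is chr6:148047166-148047465 on the plus strand, and Awat2 is chrX:100442668-100442967 on the minus strand.
Awat1: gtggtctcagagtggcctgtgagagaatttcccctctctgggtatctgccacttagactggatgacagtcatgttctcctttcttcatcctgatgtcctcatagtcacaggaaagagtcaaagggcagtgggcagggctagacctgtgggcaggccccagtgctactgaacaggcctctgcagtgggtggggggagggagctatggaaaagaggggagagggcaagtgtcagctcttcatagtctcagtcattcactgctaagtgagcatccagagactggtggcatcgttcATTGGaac
Far2: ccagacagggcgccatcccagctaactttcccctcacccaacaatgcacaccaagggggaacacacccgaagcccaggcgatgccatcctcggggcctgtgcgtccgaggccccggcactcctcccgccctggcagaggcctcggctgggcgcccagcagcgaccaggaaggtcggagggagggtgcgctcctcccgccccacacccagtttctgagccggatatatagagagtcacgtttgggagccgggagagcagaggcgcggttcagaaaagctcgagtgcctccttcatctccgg
Awat2: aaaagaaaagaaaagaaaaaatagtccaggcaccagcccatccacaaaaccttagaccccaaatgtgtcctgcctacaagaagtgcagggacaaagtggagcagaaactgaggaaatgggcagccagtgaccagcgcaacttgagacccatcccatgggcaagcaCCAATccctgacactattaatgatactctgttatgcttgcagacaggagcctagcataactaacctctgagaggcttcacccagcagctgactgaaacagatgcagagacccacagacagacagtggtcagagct
CCAAT was in 4 of the 8 windows, those of Soat1, Awat1 and both Awat2 starts, and in 37.4% of all 32851 windows. AGGTCA (a nuclear receptor element), TCACNCCAC (a sterol regulatory element), TATAAA and CACGTG (an E-box) were searched on both strands and were in none of the 8. They were in 16.3%, 1.24%, 13.6% and 7.15% of all windows. The Far2 window therefore holds none of the searched motifs, and the one match in Awat1 lies 43 bases after the start site. The letters of no motif hold those of another.

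Ordered by role, the receptor comes first. Mc5r (gene 17203, chromosome 18, 68336744 to 68342446) encodes the melanocortin 5 receptor, which in mice is needed for normal sebum output and a water-repellent coat. Its level ran from 25.9 to 45.1 CPM in model skin, with a median of 37.4, and from 53.7 to 68.7 CPM in control skin, with a median of 59.8. Every model library lay below every control library, a separation that 1.44% of genes tested showed in this direction. The means were 35.9 ± 8.15 CPM in model skin and 60.1 ± 5.73 CPM in control skin (SD, n = 6 each), a log2 fold change of -0.74 (SE 0.14; edgeR QL, BH-adjusted p = 0.00365). It passed in all 24 alternative settings and left-out libraries, with log2 fold changes of -0.79 to -0.63. Within model skin, libraries 1 and 4 were the lowest at 26.9 and 25.9 CPM, and the other 4 were at 34.5 to 45.1 CPM.

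**Figure D1:**
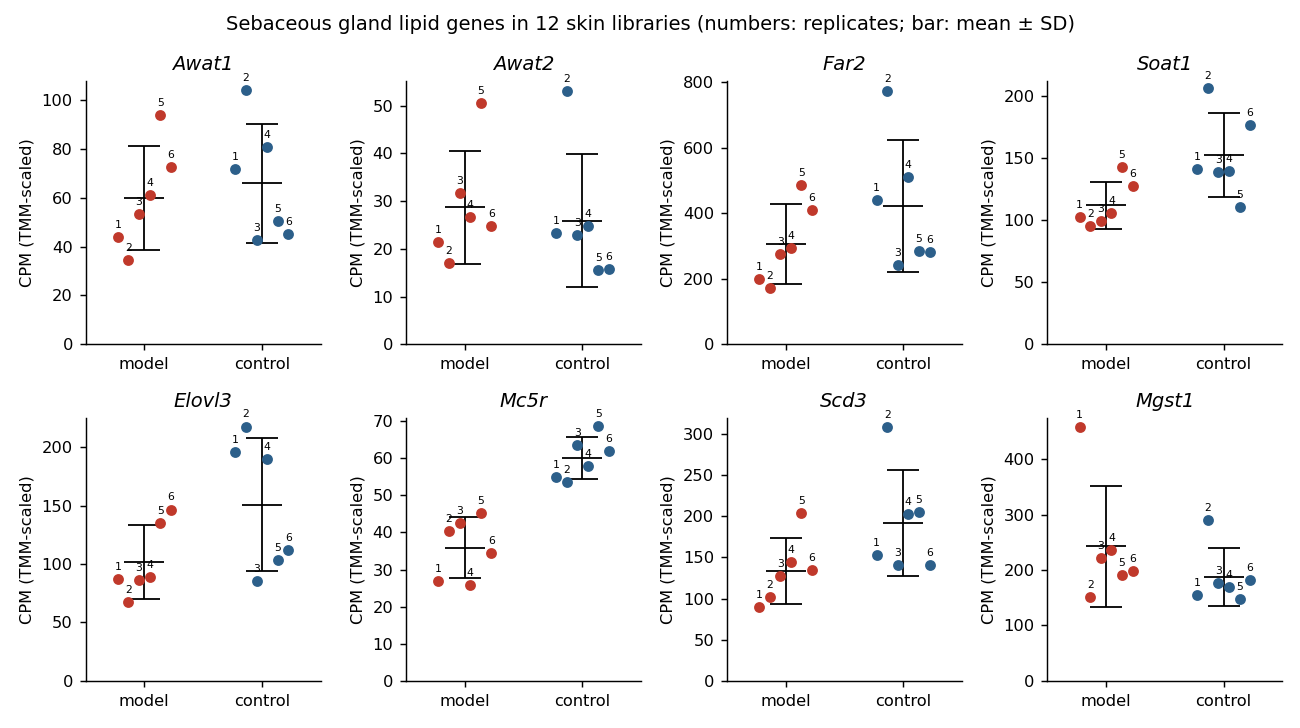
Level of each gene (CPM, linear axis from 0) in the 6 model and 6 control skin libraries, with replicate numbers beside the points and bars for mean ± SD. Mc5r is the one panel in which the groups do not overlap, at 25.9 to 45.1 CPM in model and 53.7 to 68.7 CPM in control skin, and control library 2 is highest of the controls for Awat1, Awat2, Far2, Soat1, Elovl3, Scd3 and Mgst1.

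Of the other melanocortin genes, 5 of the 9 in the table passed the filter on low counts, Mrap and Mc2r rose and Mc1r fell. For scale, 14.1% of all genes tested in skin rose and 5.82% fell. Mrap, an accessory protein of melanocortin receptors best known for carrying Mc2r to the cell surface, was at 43.7 ± 41.3 CPM in model skin and 7.15 ± 1.83 CPM in control skin (SD, n = 6 each; log2 fold change 2.61; edgeR QL, BH-adjusted p = 0.00535). Mc2r, the corticotropin receptor, was at 7.52 ± 6.74 CPM in model skin and 1.99 ± 0.270 CPM in control skin (log2 fold change 1.92; edgeR QL, BH-adjusted p = 0.0128). Both peaked in model library 1, at 124 CPM for Mrap and 20.4 CPM for Mc2r, and both are also known from mouse adipocytes. The part of adipocytes in the values of Mrap and Mc2r was not tested. Mc1r, the receptor of pigment cells, was low (log2 fold change -3.93; edgeR QL, BH-adjusted p = 0.0397), at 0.0891 to 0.536 CPM in model skin and 0.0447 to 14.8 CPM in control skin. The groups overlapped, and Mc1r passed in 4 of 12 fits that each left out a library; it did not without model 1, 3, 4, 5 or 6 or control 3, 5 or 6. Agrp, an antagonist peptide, and Atrn, a transmembrane protein of the same pathway, had log2 fold changes of -0.23 and -0.28 and missed the threshold.

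Far2 reduces fatty acyl-CoA to fatty alcohol, the first step toward wax esters. It ran from 172 to 487 CPM in model skin, with a median of 285, and from 242 to 773 CPM in control skin, with a median of 363. The groups overlapped, with model libraries 1 and 2 below all controls, and control library 2 was far above the others. Means were 306 ± 121 CPM in model skin and 422 ± 201 CPM in control skin (SD, n = 6 each), and the log2 fold change of -0.46 (SE 0.33) did not pass (edgeR QL, BH-adjusted p = 0.329). Its relative Far1, found in most tissues, was at 115.5 ± 18.3 CPM in model skin and 120 ± 17.1 CPM in control skin (log2 fold change -0.05, not passing).

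Awat1 and Awat2, acyltransferases that join fatty alcohols to fatty acids, did not differ detectably between the groups. Awat1 ran from 34.3 to 94.0 CPM in model skin, with a median of 57.3, and from 42.6 to 104 CPM in control skin, with a median of 61.3 (log2 fold change -0.14, SE 0.27; edgeR QL, BH-adjusted p = 0.754). Awat2 ran from 16.9 to 50.6 CPM in model skin, with a median of 25.7, and from 15.6 to 53.1 CPM in control skin, with a median of 23.1 (log2 fold change 0.15, SE 0.33; edgeR QL, BH-adjusted p = 0.782). Both overlapped widely, and both were highest in control library 2 and, within model skin, in library 5. Dgat2l6, which lies between them, was at 23.0 ± 9.03 CPM in model skin and 21.0 ± 8.52 CPM in control skin (SD, n = 6 each; log2 fold change 0.13, not passing). The signs for Awat1 and Awat2 turned with a library left out, Awat1 without control 2 and Awat2 without model 5.

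Elovl3 (gene 12686, chromosome 19, 46131897 to 46135694) lengthens fatty acids into the very long chain range and is known for its place in mouse sebaceous glands. It ran from 67.6 to 147 CPM in model skin, with a median of 87.9, and from 85.7 to 218 CPM in control skin, with a median of 151. The control libraries formed a high set, 1, 2 and 4, at 190.1 to 218 CPM, and a low set, 3, 5 and 6, at 85.7 to 112 CPM, and the low set overlapped model skin. The log2 fold change was -0.57 (SE 0.27; edgeR QL, BH-adjusted p = 0.15). Of the other elongases, Elovl1, Elovl4, Elovl5, Elovl6 and Elovl7 had log2 fold changes of -0.40 to 0.00 and none passed.

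Scd3 desaturates fatty acids and in the mouse is known from sebaceous glands. It ran from 90.3 to 204 CPM in model skin, with a median of 131, and from 141 to 309 CPM in control skin, with a median of 178. Model libraries 1, 2, 3 and 6 lay below all controls, and libraries 4 and 5 within their range. The log2 fold change was -0.52 (SE 0.23; edgeR QL, BH-adjusted p = 0.132), and it passed without model library 5 (-0.64, adjusted p = 0.0459) and in a fit of all 24 libraries (-0.56, adjusted p = 0.0174), and with either the gland or a hair score as a covariate. Its paralog Scd1, far more abundant and also made by adipocytes, was at 8190 ± 7001 CPM in model skin and 3319 ± 1084 CPM in control skin (log2 fold change 1.30; edgeR QL, BH-adjusted p = 0.0521). In model library 1 Scd1 stood at 22000 CPM, its highest, and Scd3 at 90.3 CPM, its lowest. Scd2 (log2 fold change 0.19) and Scd4 (0.04) did not pass. The part of reads fitting both Scd3 and Scd1, whose shared run is printed above, was not tested.

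Soat1 esterifies cholesterol with a fatty acid. It ran from 95.3 to 143 CPM in model skin, with a median of 104, and from 111 to 206.5 CPM in control skin, with a median of 140.4. Model libraries 1, 2, 3 and 4 lay below all controls, and libraries 5 and 6 lay within the control range. Means were 112 ± 18.9 CPM in model skin and 152 ± 33.9 CPM in control skin (SD, n = 6 each), with a log2 fold change of -0.44 (SE 0.15) that narrowly missed the threshold (edgeR QL, BH-adjusted p = 0.0586). It passed as lower in 9 of 24 alternatives, among them DESeq2 (adjusted p = 0.0211) and the fits without model library 5 (0.0299) and without control library 5 (0.0346). Soat2, the second sterol acyltransferase gene, was near the limit of detection, at 0.324 to 3.34 CPM in model skin and 0 to 0.514 CPM in control skin. At that low level it passed edgeR's test as higher in model skin (log2 fold change 2.49).

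Mgst1 (gene 56615, chromosome 6, 138140527 to 138156755) encodes a microsomal glutathione transferase that detoxifies lipophilic compounds, and it is widely expressed. It ran from 152 to 459 CPM in model skin, with a median of 209.6, and from 148 to 289.9 CPM in control skin, with a median of 173. One library of each group stood apart, model library 1 at 459 CPM and control library 2 at 289.9 CPM. The log2 fold change was 0.38 (SE 0.26; edgeR QL, BH-adjusted p = 0.312), and 0.10 without model library 1. Summed over 12 adipocyte markers, that library stood at 23860 CPM, the rest of model skin at 3642 to 10820 CPM and control skin at 2653 to 3994 CPM, and their part in the Mgst1 value was not tested. Among the 5 relatives of Mgst1 in its enzyme family, Alox5ap and Ltc4s, which act in leukotriene synthesis and are made by myeloid cells, rose 5.61-fold and 4.95-fold. Mgst2, Mgst3 and Ptges did not pass. Over all genes tested in skin, 14.1% rose.

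**Figure D2:**
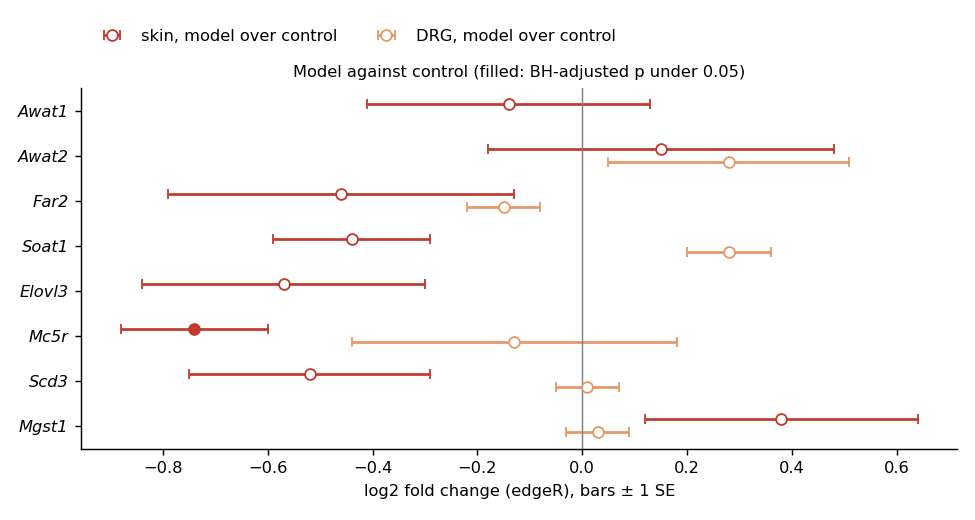
Log2 fold change of model over control (points, with bars of 1 SE, from edgeR) for each gene in skin (red, upper of each pair) and DRG (orange, lower); filled points passed a BH-adjusted p under 0.05. Mc5r in skin, at -0.74, is the one filled point, Soat1 lies at -0.44 in skin and 0.28 in DRG, and Awat1 and Elovl3 were not tested in DRG.

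The level per transcript length set the genes in an order. In model skin the mean TPM was 520.4 for Mgst1, 187 for Far2, 115 for Elovl3, 91.5 for Awat1, 82.4 for Scd3, 49.8 for Soat1, 37.0 for Awat2 and 18.3 for Mc5r. In control skin it was 403 for Mgst1, 251 for Far2, 166 for Elovl3, 115 for Scd3, 98.1 for Awat1, 66.2 for Soat1, 32.6 for Awat2 and 30.0 for Mc5r. The ranges of neighbours in this order overlapped, except for Mgst1 above Far2 in model skin, but within a library the order was steadier. Mgst1 was above Far2, and Far2 above Elovl3, in all 12 skin libraries. Awat2 was above Mc5r in 6 of 6 model libraries and in 3 of 6 control libraries.

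**Figure D3:**
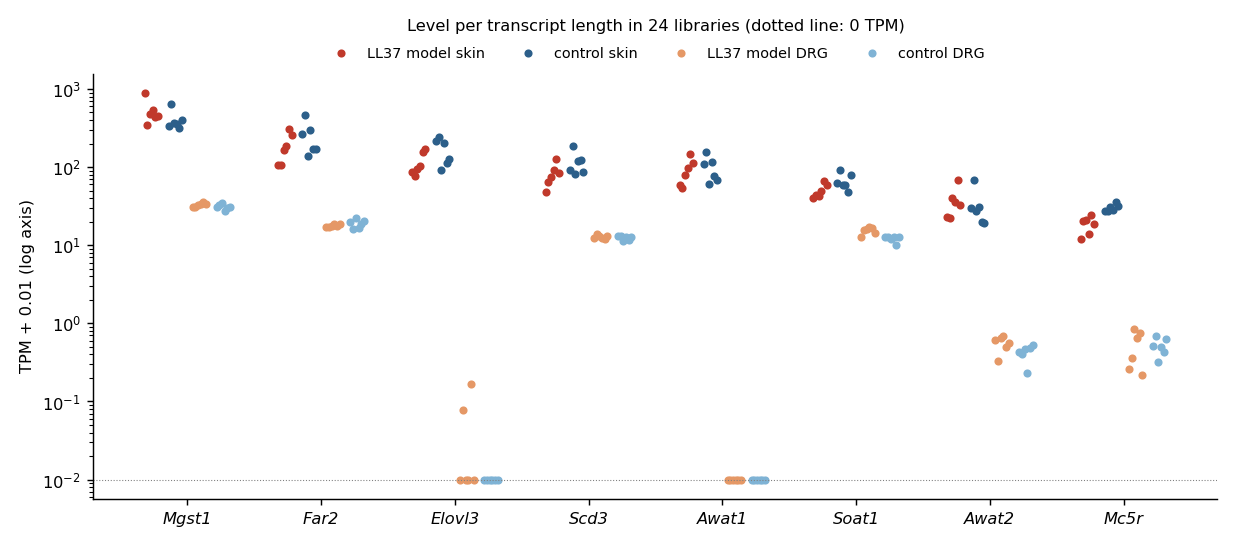
Level per transcript length (TPM + 0.01, log axis) of each gene in the 24 libraries, 6 per group, with genes ordered by mean TPM in control skin and the dotted line at 0 TPM. All 8 genes lie higher in skin than in DRG, where Awat1 sits on the line in all 12 libraries.

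Control skin was also compared with control DRG, a tissue without sebaceous glands. Genes of any skin cell type can be higher in this comparison, so it does not show that a gene marks the gland. All 8 were higher in control skin. Of the 21784 genes tested, 84.0% differed, 42.3% higher and 41.6% lower in control skin. Awat1 had no count in any of 12 DRG libraries, and Elovl3 none in control DRG. Set against a floor of 3 counts, taken over all control DRG libraries, Awat1 was at least 7.36e+03-fold and Elovl3 at least 1.67e+04-fold higher in control skin. Mc5r and Awat2 were 63.5-fold and 62.8-fold higher in control skin, at 0.919 ± 0.247 and 0.393 ± 0.0944 CPM in control DRG (SD, n = 6). Far2, Mgst1, Scd3 and Soat1, with more counts in DRG than Mc5r or Awat2, were 15.9-fold, 15.1-fold, 10.7-fold and 6.28-fold higher in control skin (edgeR QL, BH-adjusted p at most 5.88e-11 for all 8 genes). In control DRG, Scd3 was at 17.4 CPM, beside 769 CPM for Scd1 and 2145 CPM for Scd2. The part of neighbours' reads in the Scd3 and Far2 counts, and so in their DRG levels and folds, was not tested. Dgat2l6, like Awat1, had no count in DRG.

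In DRG none of the 6 genes that passed the filter differed between the groups in edgeR or in DESeq2, and 2 had an unadjusted p under 0.05. Over all 19509 genes tested in DRG, 0.0974% rose and 0% fell with edgeR (19 genes, and 1822 at an unadjusted p under 0.05), and DESeq2 called 136. Soat1 ran from 23.9 to 31.6 CPM in model DRG, with a median of 29.5, and from 19.8 to 25.05 CPM in control DRG, with a median of 24.5. Model libraries 2 to 6 lay above all controls, and the log2 fold change was 0.28 (SE 0.08; unadjusted p = 0.00276; edgeR QL, BH-adjusted p = 0.366). Far2 was at 23.2 ± 0.870 CPM in model DRG and 25.7 ± 2.81 CPM in control DRG (SD, n = 6 each; unadjusted p = 0.0452; edgeR QL, BH-adjusted p = 0.526). Scd3 averaged 17.5 ± 0.925 CPM in model DRG and 17.4 ± 1.18 CPM in control DRG. Elovl3 had 4 and 7 counts in model DRG libraries 2 and 5 and 0 in the other 10 DRG libraries.

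Tested directly, the model effect on Soat1 differed between the tissues. The skin effect minus the DRG effect was -0.76 on the log2 scale (SE 0.17; edgeR QL, BH-adjusted p = 0.00445), and it passed in all 26 alternatives. Of 17251 genes, 6.43% passed in this direction and 10.6% in the other, beside 1 of the 6 genes here, or 2 without model skin library 5, where Scd3 passed as well (-0.75, adjusted p = 0.0176). For Mc5r it was -0.65 (SE 0.34; edgeR QL, BH-adjusted p = 0.185), so the fall in skin is not shown to differ from the value in DRG, where Mc5r was near 1 CPM. For Scd3 it was -0.56 (BH-adjusted p = 0.117, edgeR QL), and Far2, Awat2 and Mgst1 did not pass.

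Across the 12 skin libraries, after each group's mean was removed, 8 of the 28 pairs among the 8 genes were correlated (permutation test of Pearson's r, two-sided, BH-adjusted over 28 pairs). All 8 lay among the 10 pairs of Awat1, Awat2, Far2, Elovl3 and Scd3. The 2 of these that missed the threshold were Elovl3 with Awat2 (r = 0.66, adjusted p = 0.0661, permutation test) and Elovl3 with Scd3 (r = 0.62, adjusted p = 0.0849, permutation test). Awat1 and Far2 gave r = 0.99 and rho = 0.99 (permutation p = 2e-05 for each, adjusted p = 0.00056), and r stayed at 0.99 without the 2 libraries farthest from the median. Far2 with Elovl3 gave r = 0.93 and rho = 0.91 (permutation p = 0.00035 and 0.00023, adjusted p = 0.00429 and 0.00322), and Awat1 with Elovl3 r = 0.92 and rho = 0.90 (permutation p = 0.00046 and 0.00068, adjusted p = 0.00429 and 0.00635). The X-linked neighbours Awat1 and Awat2 gave r = 0.84 and rho = 0.79 (permutation p = 0.0009 and 0.00537, adjusted p = 0.0063 and 0.0289; r = 0.74 without the 2 farthest). For scale, 4.57% of 14523 other skin genes had r of at least 0.84 with Awat1, and 3.96% with Far2. Awat2 with Scd3, at r = 0.80 and rho = 0.61 (permutation p = 0.00524 and 0.053, adjusted p = 0.0183 and 0.114), rested on model library 5 and control library 2, since r was 0.34 without them. The other 3 called pairs were Awat1 with Scd3, Far2 with Scd3 and Awat2 with Far2, each at r = 0.84 and at 0.78, 0.64 and 0.63 without the 2 farthest libraries.

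**Figure D4:**
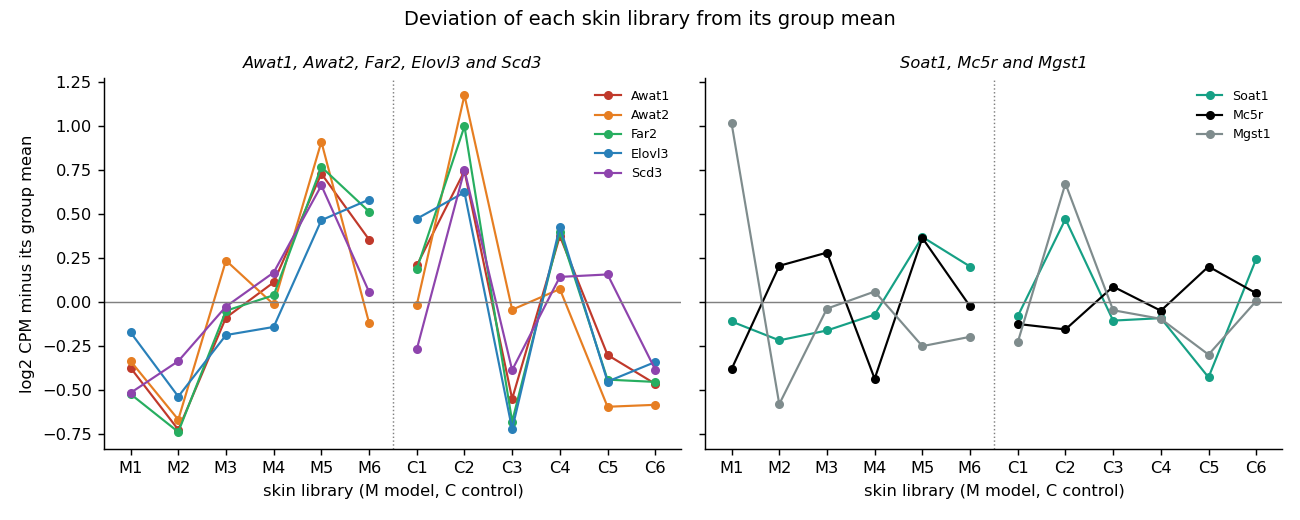
Log2 CPM of each skin library minus the mean of its group, for the 5 genes in called pairs (left) and the other 3 (right); M1 to M6 are model and C1 to C6 control libraries, and lines only join the points of a gene. On the left all 5 genes lie above the group mean in model library 5 and are highest of the controls in control library 2, and all 5 lie below the mean in model libraries 1 and 2, while on the right Mgst1 peaks in model library 1 and Mc5r is lowest in model libraries 1 and 4.

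Soat1 was in no called pair (lowest adjusted p = 0.0584, permutation test). With these 5 genes its r, 0.53 to 0.70, was lower without the 2 farthest libraries, at 0.47 with Awat1, 0.40 with Elovl3, 0.36 with Far2, 0.11 with Awat2 and -0.20 with Scd3. Mc5r gave r of -0.64 to 0.16 with the others and no called pair, and its lowest value was with Mgst1, at r = -0.64 and rho = -0.65 (permutation p = 0.0358 and 0.0473, adjusted p = 0.0771 and 0.11; r = -0.52 without the 2 farthest). Taken by group, Mc5r gave r of 0.20 in model skin and -0.83 in control skin with Awat1, 0.43 and -0.77 with Awat2, 0.28 and -0.85 with Far2, and 0.16 and -0.89 with Elovl3. With Mgst1 it was -0.67 in model skin and -0.57 in control skin. None of these values passed (n = 6 each, exact permutation test, two-sided; lowest p = 0.0347, adjusted over 56 tests 0.112), they were chosen after seeing the data, and the difference between the groups was not tested.

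**Figure D5:**
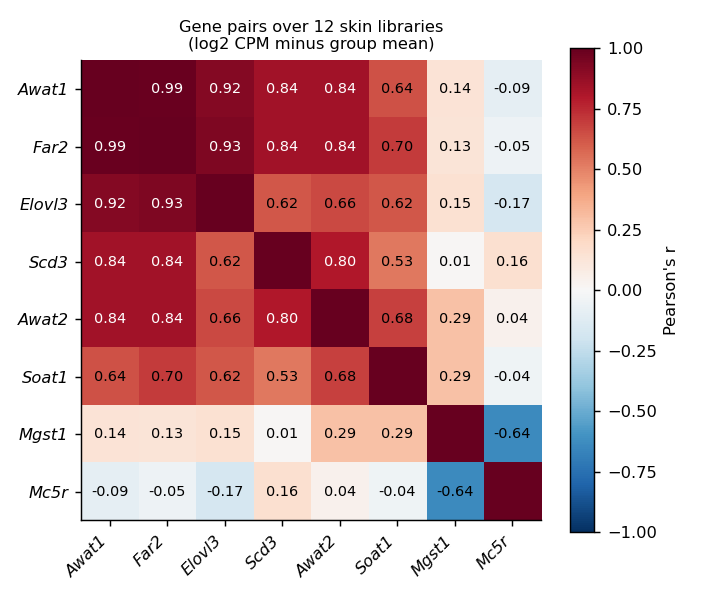
Pearson's r between genes over 12 skin libraries, from log2 CPM minus the group mean (red positive, blue negative, diagonal 1). Awat1, Far2 and Elovl3 form the block at 0.92 to 0.99, and Mc5r ranges from -0.64 with Mgst1 to 0.16 with Scd3.

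The skin genes most like each of the 8 were named by Pearson's r over the same 12 libraries, among 14523 genes, as a description without a test. Closest to Awat1 were Sptlc3, which makes sphingoid bases (r = 0.992), the lipase gene Pnpla5 (0.99) and Plek2 (0.988). Closest to Far2 were Rdh1, a retinol dehydrogenase (0.992), Pnpla5 (0.991) and Fa2h, which hydroxylates fatty acids (0.99). Awat2 was most like Aadacl2fm1 (0.977), the water channel gene Aqp4 (0.973) and the ceramide synthase gene Cers5 (0.971), and Elovl3 most like Pctp, a phosphatidylcholine transfer protein (0.959), Pcyox1 (0.946) and Sgpp2 (0.945). Nearest to Scd3 were Pptc7 (0.945), the peroxisomal oxidase gene Acox3 (0.942) and Hif1an (0.939). Soat1 had less close neighbours, Acp6 (0.908), Tmem97 (0.906) and Slc16a13 (0.905), and 4 genes at r of at least 0.9, against 276 for Awat1. For Mc5r they were Tmprss11f, a membrane serine protease (0.985), Ambra1 (0.96) and Ndfip2 (0.953). Tmprss11f also fell in model skin, to 39.5 ± 10.9 CPM against 62.2 ± 5.57 CPM in control skin (SD, n = 6 each; edgeR QL, BH-adjusted p = 0.0166). Mgst1 was most like the mitochondrial genes Ndufb5 (0.976), Mccc2 (0.973) and Atp5c1 (0.972).

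The other lipid genes were listed with these results in view. Of 27 other genes of sebum lipid synthesis, 8 rose and none fell in model skin, with a median log2 fold change of 0.13. Over all genes tested in skin, 14.1% rose and 5.82% fell. Plin2, which coats lipid droplets, rose with no overlap between groups, to 428 ± 206 CPM in model skin against 168 ± 45.5 CPM in control skin (SD, n = 6 each; log2 fold change 1.35; edgeR QL, BH-adjusted p = 0.00602). Agpat2, Fasn and Acaca, of triglyceride and fatty acid synthesis, had log2 fold changes of 2.44, 2.22 and 1.87, and Soat2, Acly, Dgat2 and Acsl1 of 2.49, 1.39, 1.31 and 1.26 (edgeR QL, BH-adjusted p of 0.0117 to 0.0418 for the 7). Soat2 was near the limit of detection, at 1.45 ± 1.23 CPM in model skin and 0.256 ± 0.206 CPM in control skin. Plin2, Agpat2 and Fasn passed in all 12 fits that each left out a library. Acaca passed in 9 of them, Acly and Soat2 in 6 each, Dgat2 in 5 and Acsl1 in 4. Each of these 5 missed the threshold without control library 3, 5 or 6, and all but Acaca also without other libraries. Fasn was at 447 to 7586 CPM in model skin, lowest in library 5 and highest in library 1, and at 460.4 to 668 CPM in control skin. The count of 8 was 3 without control library 3, 5 or 6 and 5 without control library 1 or 4 or model library 3. It was 10 without control library 2 or model library 5, and 6 to 8 without model library 1, 2, 4 or 6. The number that fell was 2 without control library 2 and 1 without model library 1 or 5. Adipocytes share many of these genes. The 12 adipocyte markers all rose (median log2 fold change 1.70), and their part in the count was not tested.

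Of 18 genes of sterol synthesis and uptake, 4 fell and none rose in model skin, 17 had log2 fold changes below 0, and the median was -0.34. Over all 19526 genes tested in skin, 5.82% fell, 14.1% rose and 10320 had log2 fold changes below 0. Sqle, an epoxidase of cholesterol synthesis, fell to 91.0 ± 25.5 CPM in model skin against 134 ± 12.2 CPM in control skin (SD, n = 6 each; log2 fold change -0.56; edgeR QL, BH-adjusted p = 0.024). Mvd, a decarboxylase of the mevalonate pathway, fell to 22.4 ± 3.42 CPM in model skin against 30.8 ± 6.18 CPM in control skin (log2 fold change -0.46; edgeR QL, BH-adjusted p = 0.0346). Sqle missed the threshold without model library 1 or 4 or control library 6, and Mvd without model library 1, 2, 3 or 4 or control library 6. The count was 2 without model library 4 or control library 6 and 10 without model library 5.

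Among 12 regulators and markers of the gland and its duct, 2 rose and 1 fell. Those shares are near the 14.1% and 5.82% of all genes tested in skin. Nr1h3 (the nuclear receptor LXR alpha) and Pparg, a regulator of sebocyte and adipocyte differentiation, rose. Lrig1, a marker of stem cells above the gland, fell. Nr1h3 was at 23.7 ± 12.1 CPM in model skin and 7.73 ± 2.30 CPM in control skin, and Pparg at 38.7 ± 18.5 CPM in model skin and 18.6 ± 4.69 CPM in control skin (SD, n = 6 each; edgeR QL, BH-adjusted p = 0.00453 and 0.0176). Within model skin both were highest in library 1, at 46.4 and 74.4 CPM, and lowest in library 5, at 10.7 and 23.9 CPM, the libraries with the highest and lowest summed adipocyte markers, at 23860 and 3642 CPM. The part of adipocytes in either gene was not tested. Lrig1 was at 172 ± 19.6 CPM in model skin and 217.5 ± 19.9 CPM in control skin (edgeR QL, BH-adjusted p = 0.021), and it did not pass without model library 4. Krt79, a keratin of the duct and gland, was at 1237 ± 442 CPM in model skin and 1229 ± 379 CPM in control skin (log2 fold change 0.01, not passing). Gata6, Myc, Prdm1, Rxra, Sox9, Srebf1 and Nr1h2 did not pass either.

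Markers of other cell types moved with the groups or with single libraries. Of 14 macrophage markers 13 rose, with summed levels of 975 to 2712 CPM in model skin and 350.5 to 741 CPM in control skin, and model library 5, the highest of the model libraries for Awat1, Awat2, Far2, Soat1, Mc5r and Scd3, was the lowest. Hair shaft and root sheath markers summed to 2070 to 30080 CPM in model skin and 1277 to 57860 CPM in control skin, and control library 2, at 1277 CPM, was far below the 37540 to 57860 CPM of the other controls. With edgeR none of the 15 hair markers passed (5 at an unadjusted p under 0.05), at a median log2 fold change of -1.56, and 12 passed as lower without control library 2 and 2 without model library 2. Mc5r fell by 0.77 on the log2 scale without that library and by 0.63 with a hair score as a covariate, passing edgeR's test in both. Epidermal markers summed to 10130 to 25940 CPM in model skin, lowest in library 2 and highest in library 5, and to 15340 to 31860 CPM in control skin, highest in library 2. Awat1 and Far2 shared these extremes in both groups, apart from their lowest control library. Over the 12 skin libraries, with group means removed, their r was 0.93 and 0.92 with the mean of the epidermal markers. With the muscle markers r was 0.79 and 0.74, with the hair markers -0.61 and -0.62, and with the neuron and glia markers -0.86 and -0.82. These r values are a description, and the part of unequal tissue makeup was not tested. Of 10 epidermal markers Ivl alone passed, as lower, and of 7 neuron and glia markers Uchl1 alone, as higher. Each passed in at most 4 of 12 fits that left out a library. Among all genes tested in skin, 5.82% passed as lower and 14.1% as higher. Muscle markers, none of which passed edgeR's test (1 at an unadjusted p under 0.05), summed to 1316 to 13230 CPM in model skin and 3528 to 13360 CPM in control skin.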

How the data were processed

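The members, gene lists and tests were chosen with earlier results of these data known. Groups came from the sample titles. The authors deposited whole-number read counts, not normalized. TPM was computed by the authors. FPKM values were deposited too and were not used. Per the submitters' processing notes, bcl2fastq 2.20.0, Trimmomatic, HISAT2 2.1.0, StringTie 2.1.3b and GRCm38/mm10 were used; the sources used here do not name the counting method.

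Each tissue was fitted alone with edgeR 4.0.16 (R 4.3.3): filterByExpr, TMM, robust quasi-likelihood F test, two-sided, BH over all genes tested. The tissue contrasts came from 1 fit of 24 libraries. The fits and the permutation test were tested on simulated data. Pairs used log2 CPM (prior count 2) minus group means and 100000 permutations within groups. Floors are 3 counts over a group and cover counting error only. No 2 libraries of a group held the same counts (lowest chi-square per gene 9.13). Named besides the 8 genes were up to 3 per list with the smallest p in skin, the 3 genes most like each member and close paralogs; other names were chosen after their values were seen. Alternatives included DESeq2 1.42.0 and limma 3.58.1. Some listed genes are counted but not reported here by name.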

Additional observations from a re-analysis of the deposited data

Results flagged for a closer look

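In 29 sets of 6 values (a gene in a group), 4 held a library far from the other 5, by a Dixon test that chance alone trips in about 1 set in 20. Awat2 was at 53.1 CPM in control skin library 2, against 15.6 to 24.8 CPM in the other controls. Mgst1 was at 290 CPM in the same library, against 148 to 183 CPM in the other controls. Mgst1 was at 459 CPM in model skin library 1, and the remaining model libraries were at 152 to 237 CPM. Awat2 was at 0.213 CPM, 11 counts, in control DRG library 4, against 0.380 to 0.471 CPM in the other control DRG libraries.

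The model effect on Soat1 differed between the tissues, at -0.76 on the log2 scale for skin minus DRG, with edgeR's interaction contrast of 4 group means. Neither tissue alone passed, at -0.44 in skin and 0.28 in DRG.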

How the results depend on the processing

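Of 8 genes, the number lower in model skin was 1 with edgeR, 2 with DESeq2, with RLE factors, with upper-quartile factors or with a 1 CPM filter, 3 with all 24 libraries in 1 fit or a hair score as a covariate, and 5 with a gland score as a covariate. Leaving out a library gave 1 to 3. Both covariates were chosen after seeing the data. Genes lower in model skin numbered 1137 with edgeR, 2398 with DESeq2, 747 with no filter, 460 and 449 with limma on log2(TPM + 1) and log2(TPM + 0.1), 3399 with 24 libraries, 2048 with the gland score, 663 with the hair score and 308 to 2554 with a library left out. All calls in skin numbered 3892, 6641 with 24 libraries and 2564 to 6278 with a library left out. In DRG there were 19 calls, 136 with DESeq2, 12 with the 1 CPM filter and 11 to 36 with a library left out.

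The tissue difference gave 2942 calls, and 2229 to 4646 with a library left out, among them 1 to 2 of the members. Of the 28 pairs, 8 passed, and 13 on log2(TPM + 0.1).

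With a library left out, log2 fold changes spanned 0 for Awat1 in skin (-0.28 to 0.04), Awat2 in skin (-0.05 to 0.49, and -0.04 with the hair score), Mc5r in DRG (-0.36 to 0.004), Scd3 in DRG (-0.02 to 0.03) and the tissue difference of Awat2 (-0.41 to 0.21). The causes were not tested.

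With the replicate block, 540 genes were lower in skin, 6 passed in DRG, and 1 member was lower. Same-numbered control and model skin libraries gave r of -0.513 to 0.257, so no pairing of these groups by number was seen. Same-numbered skin and DRG libraries gave r of -0.042 to 0.079 in control and -0.144 to 0.062 in model. Such values cannot show whether skin and DRG of a number came from the same animal. The main tissue contrasts treated all 24 libraries as independent. For Awat2 and Mc5r in DRG, at under 1 CPM, depth limits what can be seen.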
